A study of Mus musculus with 2 samples.

Results

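The Cbx chromodomain proteins and their H3K9 partners were examined in neutrophils cultured from miR-223 knockout and wild-type mouse bone marrow. The set was chosen by gene symbol, as all array probe sets that the platform annotation names for 1 gene only among 9 genes: Cbx1, Cbx3 and Cbx5 (the HP1 proteins), Cbx2, Cbx6, Cbx7 and Cbx8 (the Polycomb chromodomain proteins), and Suv39h1 and Trim28. It held 22 of 34945 such probe sets and 8 of 18193 measured genes. Suv39h1 was not analysed here, since no probe set was named for it. Each genotype was measured on 1 Affymetrix 3' expression array.

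The knockout array came from male C57BL/6 mice lacking miR-223, and the wild-type array from male C57BL/6 mice. For both, blood-forming progenitors were grown for 6 days in medium with G-CSF, which drives progenitors into the granulocyte lineage, and SCF, which activates the receptor Kit. Both cultures received cycloheximide, a blocker of translation, at 100 ug/ml for the last 8 min, so the untreated state was not seen in either. Neither the knockout allele nor the number of mice behind each culture is stated in the labels. With 1 array per genotype no difference has a replicate check, no test or p-value was computed, and precision is limited by having so few arrays.

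HP1 proteins bind histone H3 methylated at lysine 9 (H3K9) through their chromodomain and pair through a second fold, the chromoshadow domain. Suv39h1 is an enzyme that writes this mark and is itself bound by HP1. Trim28, also called KAP1, is brought to DNA by zinc finger repressors and binds HP1 and the H3K9 methyltransferase Setdb1. The Polycomb Cbx proteins instead bind H3 methylated at lysine 27, the mark of the complex PRC2, and anchor the complex PRC1, which ubiquitinates histone H2A. Heterochromatin condenses strongly as granulocytes mature, and the nuclear envelope protein Lbr, which binds HP1, is needed for the normal lobed or ring-shaped nucleus.

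MiR-223 is a microRNA abundant in the granulocyte lineage, and Cbx5 was named as one of its targets in earlier work. Its mature arms are shown because the label of the knockout array names miR-223, and their loss was not checked here. Both were taken from RefSeq on build GRCm38.p6, where they lie on the plus strand at chrX:96242884-96242905 for the 3p arm and chrX:96242842-96242864 for the 5p arm, and the capitals mark the seed, bases 2 to 8.
mmu-miR-223-3p: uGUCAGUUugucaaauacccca
mmu-miR-223-5p: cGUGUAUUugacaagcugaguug
The reverse complements of these seeds are AACUGAC and AAUACAC. Transcript sequences were not used here, so no member was searched for either.

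Each difference is the knockout value minus the wild-type value of log2(intensity + 16). A gene was represented by whichever probe set had the highest mean of these values over both arrays. It was called expressed where this mean reached the median of all probe sets (5.64, an intensity of 33.9). Spread could be judged only from expressed probe sets of the same gene, whose pooled SD was 0.144 over 5017 genes and is no replicate error. Levels of different genes were not compared, since each probe set has its own response.

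All 9 measured neutrophil marker genes were expressed on these arrays, 8 of them higher on the knockout array (median 0.097). The summed intensity of the expressed neutrophil markers was 148316 on the knockout array and 141174 on the wild-type array. Markers of other blood cells differed between the arrays. All 10 mast cell and basophil markers were lower on their brightest probe sets (summed intensity 4684 on the knockout array and 6710 on the wild-type array). Among them Kit stood at only -0.047, with its other expressed probe set at 0.18. Also lower were 6 of 7 expressed megakaryocyte and platelet markers (1299 and 2020) and 3 of 4 expressed eosinophil markers (968 and 1192). The exceptions had the largest differences of their lists. They were Itgb3 (205 on the knockout array and 71.1 on the wild-type array, 1.34) and Siglecf (370 and 187, 0.92). Of 9 expressed monocyte and macrophage markers, 7 were higher (5980 and 5187). Of 2 expressed B cell markers 1 was higher (210.3 and 167), and of 2 expressed T and NK cell markers 1 was higher (1223 and 933). The higher one was Nkg7 (1181 on the knockout array and 847 on the wild-type array), while Cd3d was lower (41.8 and 85.7). Each sum follows its brightest probe sets, such as Nkg7 here and Csf1r (3836 and 3580) among monocyte and macrophage markers. Below the expression cut were Mrc1 and C1qa of macrophages, Ccr3 and Il5ra of eosinophils, Cd79a and Ms4a1 of B cells, and Cd3e and Cd3g of T cells. The part of these cells in the member values was not tested, and in bulk RNA fewer cells of a type and less RNA per cell cannot be told apart. Spike-in control RNAs gave less signal on the knockout array, by a median difference of -0.11 for 18 hybridization and -0.17 for 24 poly-A probe sets, and nothing was adjusted to them.

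Of the 8 measured genes, 7 were expressed, 3 higher and 4 lower on the knockout array. Their median difference was -0.051. Over all 11006 expressed genes the median was -0.00037, with 49.7% higher and 50.1% lower. On these probe sets the HP1 genes stood on the higher side, with Cbx1 at 0.35 (-0.11 when probe sets with shared-sequence suffixes are left out), Cbx5 at 0.33, and Cbx3 at 0.11 on 1 dim probe set. The 3 expressed probe sets that Cbx3 shares with a pseudogene were lower (-0.21 to -0.11). The expressed Polycomb genes Cbx6 (-0.25, but 0.13 without such probe sets), Cbx8 (-0.23) and Cbx2 (-0.12) stood on the lower side. Trim28 was close to 0 (-0.051). On the probe set used for each gene, no member reached 0.5 in size, let alone the 2-fold mark of 1. Another expressed probe set of Cbx5, 1421933_at, stood at 0.54. Of all expressed genes 1.13% were at 0.5 or more and 0.591% at -0.5 or less, and 0.0999% and 0.0454% were past 1 and -1. At this background a count of 0 among 7 genes is no result about them.

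**Figure D1:**
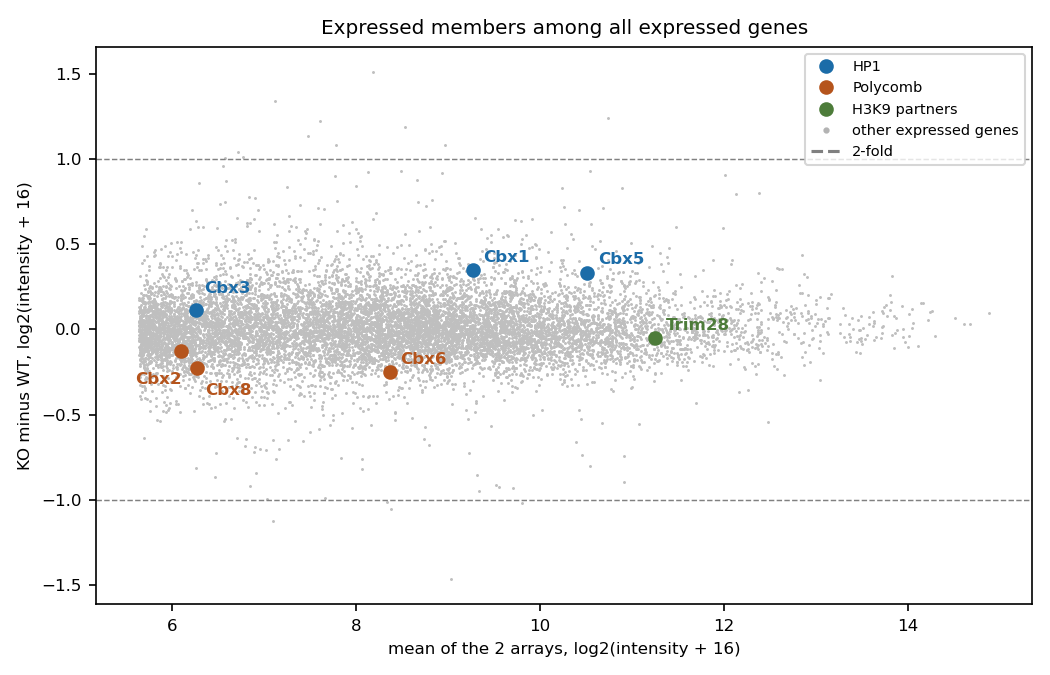
Difference between the arrays (y axis, knockout minus wild type, log2(intensity + 16)) against the mean of both (x axis, same scale) for all 11006 expressed genes in grey and the 7 expressed members in colour by class. Cbx1 (0.35) and Cbx5 (0.33) lie in the upper part of the cloud, Cbx6 (-0.25) and Cbx8 (-0.23) in the lower part, and none nears the dashed 2-fold lines.

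Cbx5 encodes HP1 alpha, which is concentrated at the heterochromatin around centromeres. Its brightest probe set, 1454636_at, had an intensity of 1625 on the knockout array and 1286 on the wild-type array, a 1.26-fold ratio and a difference of 0.33. Of all expressed genes 4.05% had a difference as high or higher. This difference exceeded the pooled SD between probe sets, as did those of 18.8% of expressed genes on the higher side.

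The 5 probe sets of Cbx5 did not give 1 answer. Probe set 1421933_at had intensities of 178 on the knockout array and 117 on the wild-type array, the widest difference of any expressed member probe set (0.54). Probe set 1421934_at had 349 and 346 (0.014), and 1450416_at had 305.0 and 321 (-0.070), so both were near equal on the knockout and wild-type arrays. The dimmest, 1421932_at, lay below the expression cut at 16.4 on the knockout array and 18.3 on the wild-type array (-0.082). Of the 4 expressed probe sets 3 were thus higher and 1 lower, and 2 of them differed by more than the pooled SD. The range of 0.61 among them was wide for this platform. Of 522 genes with 4 expressed probe sets, 3.64% had a range at least as wide, and the median range was 0.26. Averaged over its 5 probe sets, Cbx5 stood at 0.15.

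**Figure D2:**
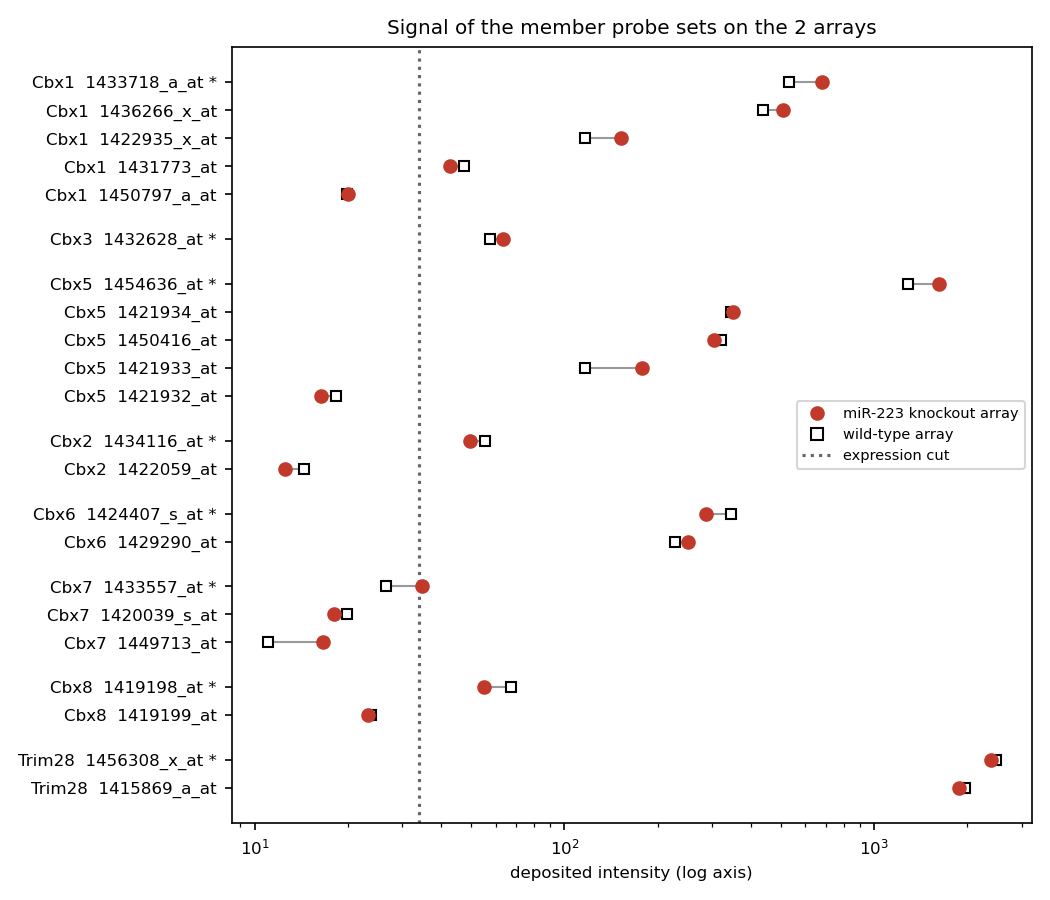
Deposited intensity (x axis, log scale) of the 22 member probe sets on the knockout array (red circles) and the wild-type array (open squares), with the probe set used for each gene starred and the expression cut of 33.9 dotted. The symbols separate for 2 probe sets of Cbx5 (178 and 117, 1625 and 1286). They separate about as widely for others, such as 1433718_a_at of Cbx1 (681 and 531) and 1449713_at of Cbx7 (16.7 and 11.0). They nearly coincide for 1421934_at of Cbx5 (349 and 346), and for Trim28 the knockout symbol lies just left of the wild-type one.

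Cbx1 encodes HP1 beta, the paralog found in both heterochromatin and euchromatin. Its brightest probe set, 1433718_a_at, had an intensity of 681 on the knockout array and 531 on the wild-type array, a 1.28-fold ratio and a difference of 0.35. Of all expressed genes 3.58% had a difference as high or higher.

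The next probe sets of Cbx1 pointed the same way. Probe set 1436266_x_at had intensities of 509 on the knockout array and 437 on the wild-type array (0.21), and 1422935_x_at had 153 and 116 (0.35). The fourth expressed probe set, 1431773_at, was lower, at 42.6 on the knockout array and 47.5 on the wild-type array (-0.11), and 1450797_a_at was below the cut at 20.0 and 19.9. All 3 higher probe sets carry a suffix that marks sequence shared between transcripts, where a stands for transcripts of 1 gene and s and x for others as well, and the lower one is the only Cbx1 probe set without it. Leaving out all such probe sets gave Cbx1 a difference of -0.11, leaving out s and x alone kept it at 0.35, and the mean over all 5 was 0.16. Their range was 0.46, and 12.3% of genes with 4 expressed probe sets had a range at least as wide.

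Cbx3 encodes HP1 gamma, which is also found along transcribed genes. Only 1432628_at was named for Cbx3 alone, with an intensity of 63.6 on the knockout array and 57.5 on the wild-type array (0.11). This difference is within the pooled SD. Another 4 probe sets are annotated for both Cbx3 and the pseudogene Cbx3-ps5, and their signal cannot be assigned to either. The 3 expressed ones were all lower, at 2769 on the knockout array and 2995 on the wild-type array (-0.11), 2735 and 3122 (-0.19), and 1008 and 1172 (-0.21). The fourth was below the cut, at 12.0 and 11.0. The direction of Cbx3 thus depends on whether the shared probe sets are read as Cbx3, and its higher value rests on 1 dim probe set.

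**Figure D3:**
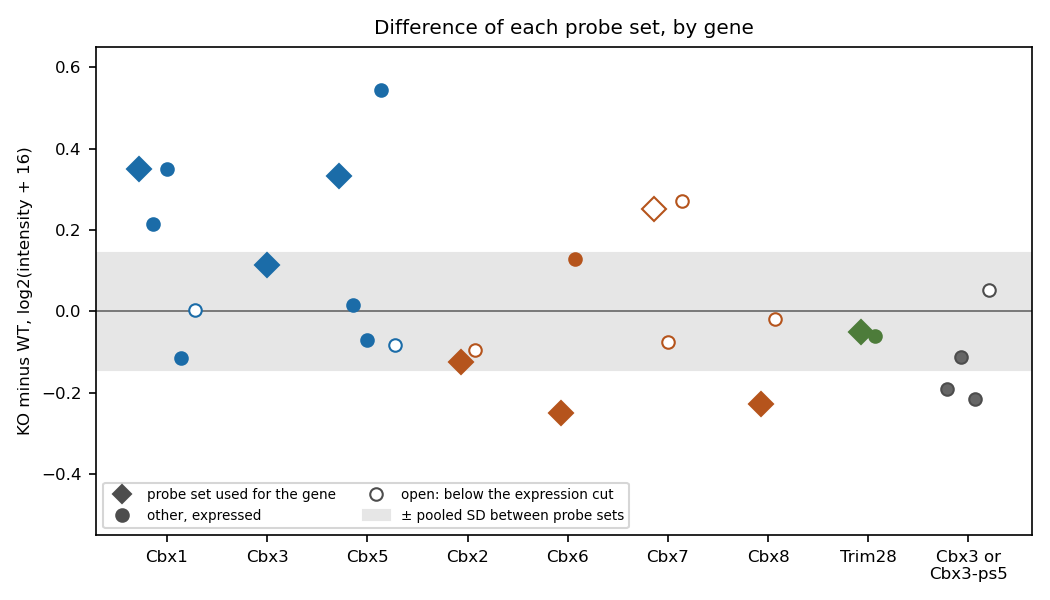
Difference of every probe set (y axis, knockout minus wild type, log2(intensity + 16)) by gene, with diamonds for the probe set used, open symbols below the expression cut and the band at ± 0.144, the pooled SD between probe sets. Probe sets of Cbx5 spread from -0.082 to 0.54 and those of Cbx6 lie on both sides of 0, while both of Trim28 and both of Cbx8 lie below it, and grey symbols are those shared by Cbx3 and Cbx3-ps5.

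Among the Polycomb proteins, Cbx6 had 2 expressed probe sets that disagreed. The brighter, 1424407_s_at, had an intensity of 287 on the knockout array and 345 on the wild-type array (-0.25). The other, 1429290_at, had 251 on the knockout array and 228 on the wild-type array (0.13). The mean over both was -0.061. Of 2884 genes with 2 expressed probe sets, 62.2% had the same sign in both and 5.69% had a range as wide as the 0.38 of Cbx6.

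Cbx8, another chromodomain subunit of PRC1, had an intensity of 55.2 on the knockout array and 67.4 on the wild-type array for 1419198_at (-0.23). Of all expressed genes 5.91% had a difference as low or lower. Its other probe set, below the cut, had 23.2 on the knockout array and 23.8 on the wild-type array (-0.020). Cbx2, a PRC1 subunit that compacts nucleosomes, had 49.5 on the knockout array and 55.4 on the wild-type array for 1434116_at (-0.12), and 12.5 and 14.4 for a probe set below the cut. The difference of Cbx2 was within the pooled SD, and those of Cbx6 and Cbx8 were past it on the lower side, as were those of 15.5% of expressed genes. The intensities of Cbx2 and Cbx8 lie near the cut, where the pseudocount shrinks a difference, and with a pseudocount of 1 they stood at -0.16 and -0.28.

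Cbx7, the Polycomb paralog tied to self-renewal of blood stem cells, was not expressed by this cut. Its brightest probe set, 1433557_at, had an intensity of 34.7 on the knockout array and 26.6 on the wild-type array (0.25), so the first lies above the cut and the second below it. The other probe sets had 18.1 on the knockout array and 19.9 on the wild-type array (-0.075), and 16.7 and 11.0 (0.27). At signals this low the difference depended on the pseudocount, at 0.12 with 64 and 0.37 with 1.

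Trim28 was nearly equal on both arrays. Its probe sets had intensities of 2382 on the knockout array and 2468 on the wild-type array (-0.051), and 1879 and 1960 (-0.061). They differed from each other by 0.0095, and 95.4% of genes with 2 expressed probe sets had a range at least as wide. Both were within the pooled SD, and 72.4% of expressed genes had a difference at least as large in size. Both probe sets carry shared-sequence suffixes, so no value remains for Trim28 without them.

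Other genes of H3K9 silencing gave values near the array median. Of 18 expressed genes of H3K9 methylation and HP1-linked silencing, 12 were lower and 6 higher, with a median of -0.038, beside 50.1% lower among all expressed genes. When probe sets were averaged, 9 were lower and 9 higher. The DNA methyltransferase Dnmt3b stood at -0.28 (177 on the knockout array and 218 on the wild-type array). Tasor (-0.27) and Pphln1 (-0.21), subunits of the HUSH silencing complex, were also lower. Lbr, the HP1-binding protein of the nuclear envelope, was higher, at 7820 on the knockout array and 6748 on the wild-type array (0.21). Of 7 expressed H3K9 demethylases 4 were lower and 3 higher, with a median of -0.036. At a stricter expression cut, the 75th percentile of all probe sets, 2 were lower and 3 higher, and the median turned to 0.015. In that list Phf8 stood at 0.29 with its other expressed probe set at -0.21, Kdm3a at -0.24, Kdm1a at -0.12 and Kdm3b at 0.075 with its other probe set at -0.25.

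Subunits of PRC1, the complex that holds the Polycomb Cbx proteins, were mostly lower by small amounts on their brightest probe sets. Of 13 expressed subunits 11 were lower and 2 higher, with a median of -0.11, beside 50.1% lower among all expressed genes. Scmh1 (-0.29), Pcgf6 (-0.19), the ubiquitin ligase Ring1 (-0.19) and its paralog Rnf2 (-0.15) had the largest differences. Ring1 had an intensity of 175 on the knockout array and 201 on the wild-type array. Scmh1, Pcgf6 and Rnf2 each had an expressed probe set on the higher side, at 0.062, 0.16 and 0.030. When probe sets were averaged, 7 subunits were higher and 6 lower, and the median turned to 0.016. At the stricter expression cut 7 were lower and 2 higher. The median as reported (-0.11) lies beside -0.00037 for all expressed genes, -0.11 for the hybridization controls and -0.17 for the poly-A controls. Any part of labelling or hybridization in it was not tested.

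PRC2, which writes the lysine 27 mark, was divided, with 5 of 11 expressed subunits higher, 6 lower and a median of -0.027. Under quantile normalization, and also when probe sets were averaged, 3 were higher and 8 lower. Phf1, an accessory subunit, had an intensity of 183 on the knockout array and 134 on the wild-type array (0.41). Ezh1, the methyltransferase that predominates in cells that do not divide, had 356 on the knockout array and 280 on the wild-type array (0.33), and its other expressed probe set gave 0.48. Its paralog Ezh2, which predominates in dividing cells and was named here after its value was seen, had 1175 on the knockout array and 1231 on the wild-type array (-0.066). The accessory subunits Phf19 (-0.28, with another probe set at 0.12) and Mtf2 (-0.16, lower on all 5 expressed probe sets) were lower.

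The cell cycle list had 17 expressed genes, of which 12 were lower and 5 higher (median -0.013), beside 50.1% lower among all expressed genes. Under median centring 9 were lower and 8 higher. Rrm2, a subunit of ribonucleotide reductase (0.36), was higher on all 3 of its expressed probe sets. Cdk1 (-0.21), Plk1 (-0.13) and Mcm2 (-0.10, with another probe set at 0.016) were lower.

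**Figure D4:**
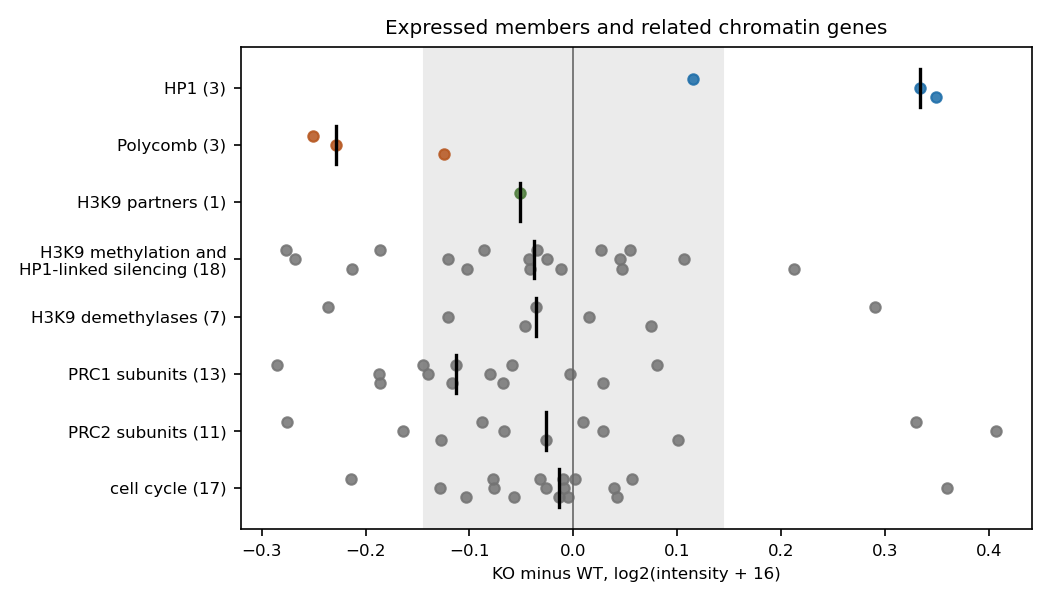
Difference of each expressed gene (x axis, knockout minus wild type, log2(intensity + 16)) in the member classes (coloured) and the related lists (grey), with the number of expressed genes in brackets, medians as black bars and the pooled SD of 0.144 as the grey band. The HP1 genes lie between 0.11 and 0.35 and the expressed Polycomb genes between -0.25 and -0.12, and the medians of the related lists lie between -0.11 and -0.013.

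The placement of HP1 genes above and Polycomb genes below 0 was not tested and rests on 3 expressed genes a class. It held under median centring, quantile normalization and loess. Other pseudocounts bear only on the size of a difference, since adding the same number on both arrays cannot turn its sign. It also held when the probe sets of each gene were averaged. Without probe sets of suffix a, s or x, 2 HP1 genes were higher and 1 lower, and 1 Polycomb gene was higher and 2 lower. Without s and x alone, the HP1 genes were all higher and 1 Polycomb gene was higher and 2 lower. Dropping the expression cut added Cbx7 as a higher Polycomb gene, and the stricter cut at the 75th percentile left 2 HP1 genes and 1 Polycomb gene. Over all alternatives Cbx5 ranged from 0.15 to 0.35, Cbx3 from 0.071 to 0.14, Cbx2 from -0.16 to -0.073 and Cbx8 from -0.28 to -0.12. Most alternatives could not turn these signs, and none of them used the probe sets shared by Cbx3 and Cbx3-ps5, which were lower where expressed.

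**Figure D5:**
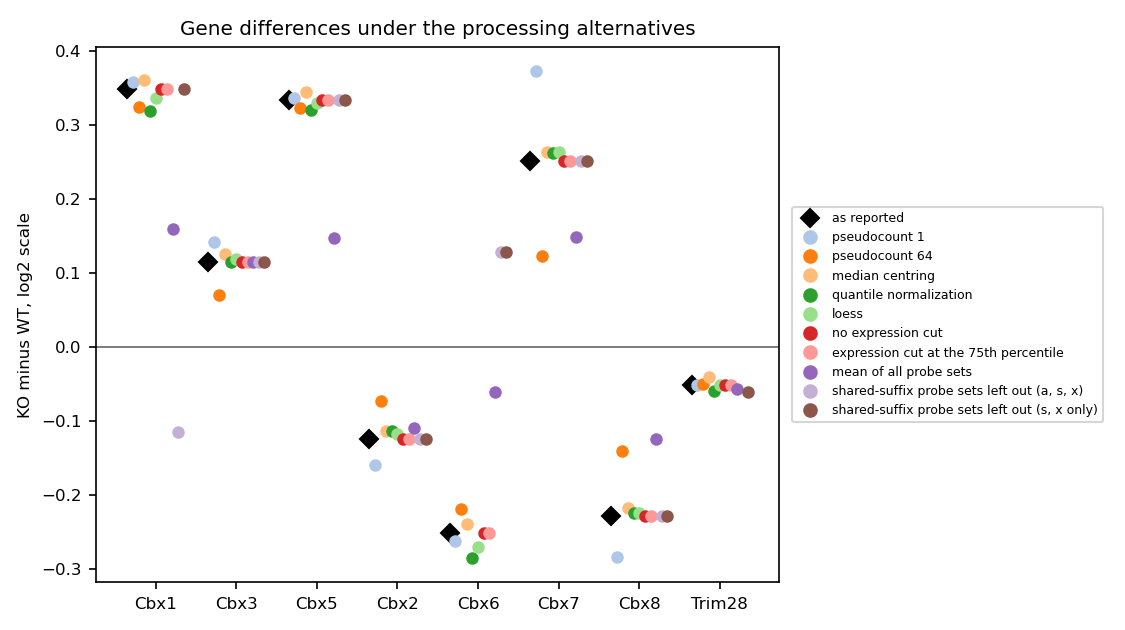
Difference of each measured gene (y axis, knockout minus wild type, log2 scale) as reported (black diamonds) and under 10 processing alternatives (coloured circles, named in the legend). Median centring, quantile normalization and loess kept the sign of every gene shown, a pseudocount can change only sizes, and the choice of probe sets moved Cbx1 from 0.35 to -0.11 and Cbx6 from -0.25 to 0.13.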

How the data were processed

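The deposited values are intensities on a linear scale, 1 for each probe set on each array. RNA was extracted with Trizol and labelled with the Affymetrix 3' IVT Express kit, per the labels' protocols, so signal comes mainly from the 3' ends of transcripts. Background correction, summarization and normalization are not stated in the labels or the file. Both columns had near-equal medians (33.7 on the knockout array and 34.1 on the wild-type array) and were used without centring. A global difference in RNA content would not be seen if they had been normalized together.

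Of 45101 probe sets, 64 were controls, 34945 were named for 1 gene by the platform annotation, 932 for several and 9160 for none. Symbols of 34741 were updated through Entrez identifiers with RefSeq genes of GRCm38.p6. Intensities were transformed to log2(intensity + 16) with Python 3.11.15, pandas 2.3.3 and numpy 2.4.6, and the loess alternative used statsmodels 0.14.6. The 2-fold call was tested on simulated data with planted differences past 2-fold, larger than any member showed. That test therefore says nothing about the member differences. All members, and in each related list up to 4 expressed genes with the largest difference, are named. Members and lists were chosen with earlier results of these data known. Alternatives were other pseudocounts (1, 64), centring, quantile normalization, loess (span 0.3), other expression cuts and other choices of probe set.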

Additional observations from a re-analysis of the deposited data

How the results depend on the processing

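Of 361 recomputed values, 322 stayed close to those reported, within the pooled SD between probe sets of 0.144 for a difference and within 1.5 times for a count. Some could not change, such as member differences under another expression cut and Cbx3 under other choices of probe set. Where a reported difference or median was smaller than 0.144 in size, it could turn its sign and still count as close. The PRC1 median did so with the mean of all probe sets (-0.11 to 0.016). Cbx1 turned to -0.11 and Cbx6 to 0.13 without probe sets of suffix a, s or x, and Cbx6 also (0.13) without s and x only, an alternative chosen after seeing the data, because other probe sets then represent them. With the mean of all probe sets Cbx1 stood at 0.16, Cbx5 at 0.15 and Cbx6 at -0.061. The median of the expressed members was 0.14 over fewer genes, with 2 lower, at an expression cut at the 75th percentile, and 0.11 without s and x. No scaling moved the median of expressed genes by over 0.1. Genes past 2-fold numbered 11 higher and 5 lower as reported. There were 10 lower with a pseudocount of 1, 3 higher and 1 lower with 64, 5 higher at the stricter cut, 7 higher with the mean of probe sets and 7 higher without a, s and x. At 1.5-fold there were 76 and 43, and at 3-fold 0 and 0. Genes past 0.5 numbered 124 higher and 65 lower as reported. There were 105 lower with a pseudocount of 1, 68 and 39 with 64, 67 and 35 at the stricter cut, and 81 higher with the mean of probe sets. No paired analysis was possible because each genotype has 1 array, and for the same reason no replicate could be left out. Signals near the cut, as for Cbx2, Cbx3, Cbx7 and Cbx8, limit what these arrays can show.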
